A study of Mus musculus with 10 samples.

Results

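WNT ligands are secreted signaling proteins, and 10 of the genes that encode them (*Wnt2*, *Wnt2b*, *Wnt4*, *Wnt5a*, *Wnt5b*, *Wnt6*, *Wnt9a*, *Wnt10b*, *Wnt11* and *Wnt16*) were examined in the anterior fontanelle (AF), the soft midline gap between the frontal and parietal bones of the developing skull. These 10 were taken by gene symbol from a table of 23080 genes, which lists 16 WNT ligand genes in all. Bulk RNA-seq had been performed on the AF of 5 control (WT) and 5 mutant (Wnt1-Cre; Fgfr2fl/fl) mouse embryos at E18.5 (the embryonic day, shortly before birth). Wnt1-Cre is active in neural crest cells, so the floxed *Fgfr2* alleles are recombined in the neural crest-derived mesenchyme of the frontal bones and AF, and cells of other origin in the excised tissue keep the receptor. The comparison asks whether the supply of WNT ligands in the AF differs when the neural crest lacks FGFR2, and whether canonical and non-canonical ligands differ from each other in this respect. Fewer cells of a type and less RNA per cell cannot be told apart in bulk tissue.

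The binding of WNT ligands to Frizzled receptors leads to different outcomes in the cell. With an LRP5 or LRP6 co-receptor, a canonical ligand stabilizes β-catenin, which enters the nucleus and acts with TCF/LEF factors on target genes. Non-canonical ligands act through receptors such as ROR2 and RYK on planar cell polarity, cell movement and calcium. WNT signaling is known in the calvaria for its roles in osteoblast differentiation and in the patency of sutures. Here *Wnt2*, *Wnt2b*, *Wnt6*, *Wnt9a* and *Wnt10b* were placed in the canonical class and *Wnt5a*, *Wnt5b* and *Wnt11* in the non-canonical class. *Wnt4* and *Wnt16* have been described in both and were kept apart.

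All 10 ligands have in common a serine that receives a lipid from the acyltransferase PORCN, without which a WNT protein is neither secreted nor able to bind Frizzled. The coding sequence around that serine is shown because it is the feature that unites the members and yet tells each gene's transcript from the others. Each line gives the 24 bases, 5′ to 3′ on the coding strand, that encode the run of 8 residues from the first to the last cysteine of the acylation site in mouse (GENCODE M21 transcripts, GRCm38), with the codon of the acylated serine in capitals.
Wnt9a: tgccatggtgtgTCTggctcctgc
Wnt10b: tgccatggaacgTCAggcagctgc
Wnt2: tgtcatggtgtgAGTggctcctgt
Wnt2b: tgtcacggtgtgAGTggctcctgt
Wnt6: tgccatgggcttTCGggttcctgc
Wnt11: tgccatggggtgTCTggctcctgc
Wnt5a: tgtcatggagtgTCTggctcctgt
Wnt5b: tgtcacggagtcTCCgggtcctgc
Wnt4: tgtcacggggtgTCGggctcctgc
Wnt16: tgccacggagttTCCggctcctgt
The site was found once in each of the 10 coding sequences. The 10 stretches were all different from one another, although 11 of the 24 positions held the same base in every gene. *Wnt2* and *Wnt2b* were alone in using an AGT serine codon, and *Wnt10b* was alone in using TCA.

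Libraries were of similar depth, with 20774667 to 28515434 estimated counts in each, of which ribosomal RNA took 18.7% to 33.6%. *Fgfr2*, the targeted gene, was at 200, 234, 176, 195 and 191 CPM (counts scaled to the size of each library, with TMM factors) in the control libraries and at 299, 273, 324, 338 and 356 CPM in the mutant libraries. It was therefore higher, not lower, in every library with the mutant label (log2 fold change 0.67, standard error 0.090, and by edgeR's quasi-likelihood test an adjusted p = 0.0487 after Benjamini-Hochberg). A count over the whole gene also covers exons outside the floxed segment and cells without Cre, so it does not measure recombination. As these counts cannot show the deletion, libraries are called control-labelled and mutant-labelled throughout. Values are given with the control label and with the mutant label, and every direction is by label. The *Fgfr2* call at an adjusted p of 0.05 was lost in 8 of the 10 fits that each left out a library, that is in all except those without control-labelled or mutant-labelled replicate 2. The 10 genes of an osteoblast list were *Ibsp*, *Sp7*, *Alpl*, *Bglap*, *Bglap2*, *Dmp1*, *Phex*, *Spp1*, *Runx2* and *Col1a1*. Together they summed to 66080 to 77695 CPM with the control label and 54068 to 78412 CPM with the mutant label. All 10 had lower estimates in mutant-labelled libraries, 6 of them at an unadjusted p under 0.05, as were 3.82% of all genes tested. The 5 genes of a fontanelle connective tissue list (*Scx*, *Tnmd*, *Mkx*, *Matn4* and *Fmod*) all had higher estimates, 4 of them at an unadjusted p under 0.05, as were 3.68% of all genes tested.

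Compared per length, the most abundant member in the control-labelled AF was *Wnt9a*. Levels were expressed as RPKM, the CPM divided by the length of all annotated exons of the gene in kilobases, so that different genes could be set side by side. By CPM, not divided by length, *Wnt5a* was above *Wnt9a* (means of 32.2 and 25.5 CPM with the control label). *Wnt9a* was at 7.65 ± 0.837 RPKM (mean ± SD, n = 5) and made up 27.9% of the RPKM of the 10 members. It was followed by *Wnt5b* (4.94 ± 0.640), *Wnt10b* (4.51 ± 0.516) and *Wnt5a* (4.11 ± 0.205). The ranges of *Wnt9a* and *Wnt5b* did not overlap, whereas neighbors among *Wnt5b*, *Wnt10b* and *Wnt5a* overlapped in range. Well below these, with no overlap, came *Wnt11* at 1.78 ± 0.164 RPKM and *Wnt2* at 1.75 ± 0.538 RPKM, whose ranges overlapped. *Wnt4* (0.907 ± 0.106), *Wnt6* (0.821 ± 0.296), *Wnt2b* (0.620 ± 0.194) and *Wnt16* (0.340 ± 0.0844) formed the low end, where each overlapped the next. In mutant-labelled libraries the order was the same except that *Wnt5a* (3.73 ± 0.338) and *Wnt10b* (3.72 ± 0.276) changed places by a margin far within their spread.

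Of the 10 ligands, *Wnt11* was higher and *Wnt10b* lower in mutant-labelled than in control-labelled libraries without overlap between the groups. *Wnt9a*, the most abundant ligand per length, was at closely similar levels. *Wnt5b* was lower on average. The differences were modest, at 1.48-fold for *Wnt11* and 0.824-fold and 0.816-fold for *Wnt10b* and *Wnt5b*, by the ratio of mean CPM. All 10 members passed the expression filter, with at least 21 counts in every library for each. None passed an adjusted p of 0.05 in edgeR's quasi-likelihood test, where 0.0184% of the 16267 genes tested did (0.0123% higher and 0.00615% lower). For the 7 members other than *Wnt11*, *Wnt10b* and *Wnt5b* the adjusted p ran from 0.664 (*Wnt5a*) to 0.955 (*Wnt2b*). DESeq2's Wald test gave no adjusted p for *Wnt2*. It called 1 of the other members, *Wnt11* (adjusted p = 0.0332), where it called 0.538% of the 17658 genes to which it gave an adjusted p. At an unadjusted p under 0.05, edgeR gave 3 of 10 members, *Wnt11* higher and *Wnt10b* and *Wnt5b* lower, where 7.49% of all genes tested passed (3.68% higher and 3.82% lower). Groups did not overlap for 2 of 10 members, where this held for 1.49% of all genes tested (0.787% higher and 0.701% lower). In all, 4 members had higher and 6 lower estimates, with a median log2 fold change of −0.14 against 0.00074 over all genes tested.

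**Figure D1:**
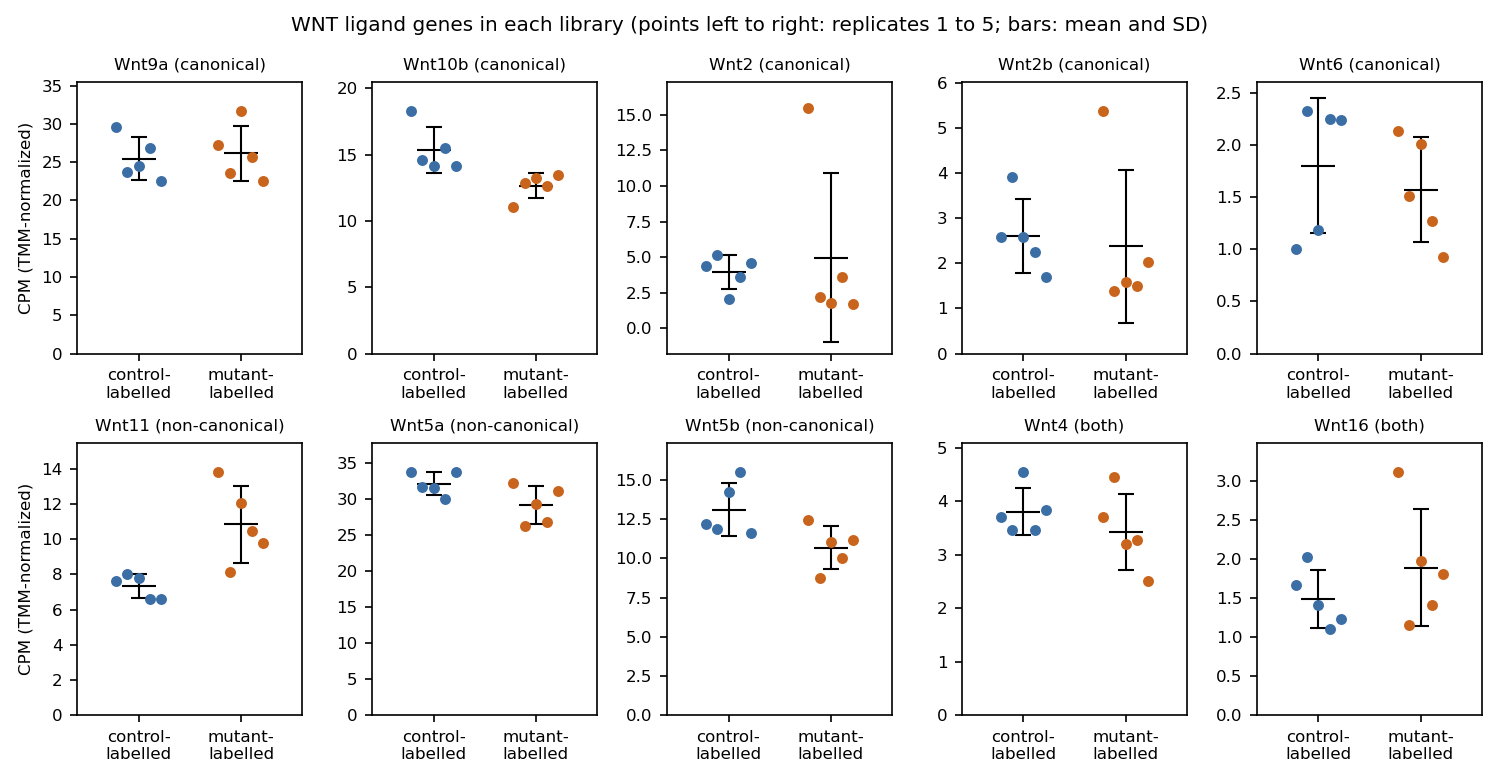
Level of each of the 10 WNT ligand genes in every library, in TMM-normalized CPM on a separate linear axis for each gene, with 5 control-labelled (blue) and 5 mutant-labelled (orange) libraries as points in the order of replicates 1 to 5 and the mean and SD in black. The groups stand apart for *Wnt11* (6.61 to 8.05 against 8.14 to 13.8 CPM) and *Wnt10b* (14.1 to 18.3 against 11.1 to 13.5 CPM), and mutant-labelled replicate 1 stands high for *Wnt2* (15.5 CPM) and *Wnt2b* (5.38 CPM).

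Among the canonical ligands, *Wnt9a*, which has known roles in joint formation and limb and craniofacial cartilage, lies on the forward strand of chromosome 11 (chr11:59306928-59333552, GRCm38). It was at 29.6, 23.7, 24.5, 26.9 and 22.6 CPM in control-labelled replicates 1 to 5 and at 27.3, 23.6, 31.7, 25.7 and 22.6 CPM in mutant-labelled replicates 1 to 5. The groups overlapped over nearly their whole range, and the highest value was that of mutant-labelled replicate 3. The log2 fold change was 0.04 with a 95% interval of −0.18 to 0.26, which bounds the difference that these libraries leave room for. With 512 to 799 counts per library, counting error was small beside the spread between libraries.

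*Wnt10b*, a ligand known to favor osteoblast over adipocyte differentiation, lies on the reverse strand of chromosome 15 (chr15:98770712-98778150), where *Wnt1* begins 11706 bases away on the opposite strand. Its levels were 18.3, 14.6, 14.1, 15.5 and 14.1 CPM with the control label and 11.1, 12.9, 13.2, 12.6 and 13.5 CPM with the mutant label. Every mutant-labelled library lay below every control-labelled one, although the gap between the groups (13.5 against 14.1 CPM) was narrower than the spread within either. Means were 15.4 ± 1.76 and 12.7 ± 0.939 CPM (SD, n = 5 each). The log2 fold change was −0.28 (standard error 0.088, 95% interval −0.47 to −0.09). An exact permutation test of mean log2 CPM gave p = 0.00794, the smallest that the groupings of 10 libraries into 5 and 5 allow (two-sided). In edgeR's quasi-likelihood test the unadjusted p was 0.00853, the adjusted p over all genes tested was 0.508, and the gene ranked 273 by p.

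*Wnt2* varied more between mutant-labelled libraries than any other member. This ligand, best known for its part in lung and vascular development, lies on the reverse strand of chromosome 6 (chr6:17988940-18030585). It was at 4.37, 5.17, 2.04, 3.59 and 4.60 CPM with the control label and at 15.5, 2.22, 1.80, 3.61 and 1.72 CPM with the mutant label. Mutant-labelled replicate 1 alone, with 334 counts, was 9.01 times as high as mutant-labelled replicate 5, with 39 counts. The coefficient of variation was 30.6% with the control label, where *Wnt6* (36.0%) and *Wnt2b* (31.3%) varied more, and 119% with the mutant label. With all libraries the log2 fold change was 0.32 (95% interval −0.95 to 1.59), and without mutant-labelled replicate 1 it was −0.75 (−1.40 to −0.09). Removal of that library thus turned the sign of the difference.

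*Wnt2b*, the close relative of *Wnt2* on the reverse strand of chromosome 3 (chr3:104945272-104961921), showed the same library on top. Its levels were 2.59, 3.91, 2.59, 2.25 and 1.69 CPM with the control label and 5.38, 1.39, 1.58, 1.49 and 2.03 CPM with the mutant label. Apart from replicate 1, mutant-labelled values lay below 4 of the 5 control-labelled ones. The log2 fold change was −0.14 with all libraries (95% interval −0.98 to 0.69) and −0.68 without mutant-labelled replicate 1 (−1.22 to −0.14). Removal of control-labelled replicate 2 brought it to 0.06, and removal of mutant-labelled replicate 2 to 0.0035.

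*Wnt6*, an epithelial ligand in many tissues, lies on the forward strand of chromosome 1 (chr1:74771892-74785322), 6193 bases upstream of *Wnt10a*. It was at 1.00, 2.33, 1.19, 2.25 and 2.24 CPM with the control label and 2.13, 1.51, 2.01, 1.28 and 0.926 CPM with the mutant label. The groups overlapped almost completely, with a log2 fold change of −0.20 (95% interval −0.86 to 0.47), and 21 to 68 counts per library left it among the least precise of the members. Leaving out control-labelled replicate 1 gave −0.34, and leaving out mutant-labelled replicate 5 gave −0.06.

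The 3 non-canonical ligands did not share a direction. *Wnt11*, a ligand of planar cell polarity and convergent extension, lies on the forward strand of chromosome 7 (chr7:98835112-98855195). Its levels were 7.63, 8.05, 7.82, 6.61 and 6.63 CPM with the control label and 13.8, 8.14, 12.1, 10.5 and 9.79 CPM with the mutant label. The control-labelled libraries lay close together and all mutant-labelled libraries were higher, mutant-labelled replicate 2 by a margin of 8.14 against 8.05 CPM. The spread was wider among mutant-labelled libraries, where the coefficient of variation was 20.03% as against 9.25%. The log2 fold change was 0.56 (standard error 0.135, 95% interval 0.27 to 0.86), and *Wnt11* ranked 68 by p among all genes tested. The exact permutation p was 0.00794, again the smallest possible, which follows from the lack of overlap. In edgeR's quasi-likelihood test the unadjusted p was 0.0014 and the adjusted p 0.321. Over the alternative analyses the adjusted p of *Wnt11* ran from 0.0332 (DESeq2's Wald test) to 0.676. The estimate stayed between 0.47 and 0.65 when each library was left out in turn.

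*Wnt5a*, the ligand of ROR2 that drives limb and facial outgrowth, lies on the forward strand of chromosome 14 (chr14:28504750-28527448). It was at 33.8, 31.7, 31.6, 30.0 and 33.8 CPM with the control label and 32.3, 26.3, 29.4, 26.8 and 31.1 CPM with the mutant label. It was the steadiest of the members among control-labelled libraries, with a coefficient of variation of 4.98%. Among mutant-labelled libraries *Wnt10b* was steadier (7.41% as against 9.06%). Mutant-labelled values were lower on average but overlapped those of control-labelled libraries, with a log2 fold change of −0.14 (95% interval −0.29 to 0.0055). The exact permutation p was 0.0714. In edgeR's test its unadjusted p was under 0.05 in 3 of the 10 fits that each left out a library, with library size alone (0.028) and with the replicate number as a block (0.029).

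*Wnt5b*, a paralogue of *Wnt5a* with known roles in chondrocyte differentiation, lies on the reverse strand of chromosome 6 (chr6:119432531-119544347). Its levels were 12.2, 11.9, 14.3, 15.5 and 11.7 CPM with the control label and 12.4, 8.77, 11.1, 10.03 and 11.2 CPM with the mutant label. Only mutant-labelled replicate 1 reached into the control-labelled range. The log2 fold change was −0.29 (standard error 0.112, 95% interval −0.54 to −0.05), with an exact permutation p of 0.0397. In edgeR's test the unadjusted p was 0.0226 and the adjusted p 0.625. Without mutant-labelled replicate 1 the estimate was −0.34 and the groups did not overlap. Of the 10 fits that each left out a library, 4 gave *Wnt5b* an unadjusted p above 0.05, of at most 0.0663 in edgeR's test, namely those without control-labelled replicate 3 or 4 or mutant-labelled replicate 2 or 4. *Wnt10b* and *Wnt11* kept an unadjusted p under 0.05 in all 10.

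Both genes described in the canonical and non-canonical classes had overlapping groups. *Wnt4*, a ligand required in kidney and gonad development, lies on chromosome 4 (chr4:137277489-137299726, forward strand). It was at 3.70, 3.46, 4.54, 3.47 and 3.84 CPM with the control label and 3.71, 4.45, 3.21, 3.27 and 2.51 CPM with the mutant label, a log2 fold change of −0.15 (95% interval −0.49 to 0.20) that was −0.25 without mutant-labelled replicate 2 and −0.05 without mutant-labelled replicate 5. *Wnt16*, known as a regulator of cortical bone, lies on chromosome 6 (chr6:22288227-22298522, forward strand). It was the lowest member per length, at 1.67, 2.02, 1.40, 1.10 and 1.22 CPM with the control label and 3.11, 1.15, 1.97, 1.40 and 1.81 CPM with the mutant label. The highest value was again that of mutant-labelled replicate 1, and the log2 fold change of 0.34 (95% interval −0.27 to 0.95) was 0.10 without it.

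**Figure D2:**
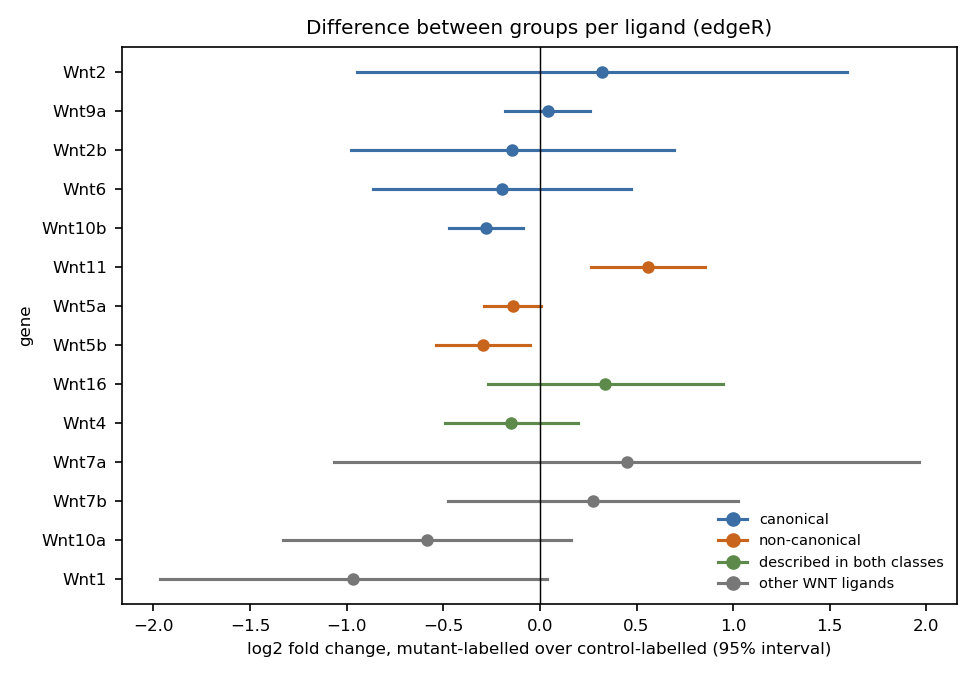
Log2 fold change of each WNT ligand gene that passed the expression filter, mutant-labelled over control-labelled, as edgeR's estimate (point) with its 95% interval (line), colored by ligand class. The intervals of *Wnt11* (0.27 to 0.86), *Wnt10b* (−0.47 to −0.09) and *Wnt5b* (−0.54 to −0.05) lie on one side of 0, and those of the low or variable genes *Wnt2*, *Wnt2b*, *Wnt6*, *Wnt1* and *Wnt7a* are wide.

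Canonical and non-canonical ligands were then compared as classes. Summed over the class, canonical ligands were at 15.4 ± 1.42 RPKM with the control label and 15.1 ± 3.30 RPKM with the mutant label, and non-canonical ligands at 10.8 ± 0.456 and 10.4 ± 1.31 RPKM (SD, n = 5 each). The balance between the classes was accordingly similar. The log2 ratio of canonical over non-canonical RPKM was 0.50 ± 0.16 in control-labelled (0.27 to 0.68) and 0.52 ± 0.19 in mutant-labelled libraries (0.24 to 0.76), a difference of 0.02 that is far within the spread between libraries. Leaving out each library in turn gave −0.038 (without mutant-labelled replicate 1) to 0.093 (without mutant-labelled replicate 5), and −0.037 without control-labelled replicate 3, so the sign of this small difference was not stable. The level of the ratio depends on the division by exon length. With CPM not so divided, the difference was 0.0061. With the mean of the members' log2 levels in place of the log2 of their sum, the difference was −0.22. There low ligands weigh as much as high ones. The median log2 fold change was −0.14 in both classes, and 0.10 for *Wnt4* and *Wnt16*. When each library was left out in turn, the canonical median ran from −0.32 (without mutant-labelled replicate 1) to 0.02 (without control-labelled replicate 2) and was 0.0035 without mutant-labelled replicate 2, while the non-canonical median ran from −0.17 to −0.10. With limma voom and quality weights the medians were −0.26 (canonical) and −0.11 (non-canonical). These class values are a description of the members and were not tested.

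The make-up of each class was examined next. *Wnt11* accounted for 16.4 ± 1.67% of the non-canonical RPKM in control-labelled libraries (14.2% to 18.6%) and for 25.1 ± 2.35% in mutant-labelled libraries (22.4% to 27.5%), with no overlap. In this share the *Wnt11* level is set against *Wnt5a* and *Wnt5b*, both of which had lower estimates. In the canonical class *Wnt9a* held 49.8 ± 3.56% and 53.3 ± 8.02%, and *Wnt10b* held 29.4 ± 1.53% and 25.8 ± 6.14%, and the groups overlapped in both shares. Mutant-labelled replicate 1 was unlike the rest, as *Wnt2* made up 33.4% of its canonical RPKM against 5.14% to 14.6% in the other libraries.

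**Figure D3:**
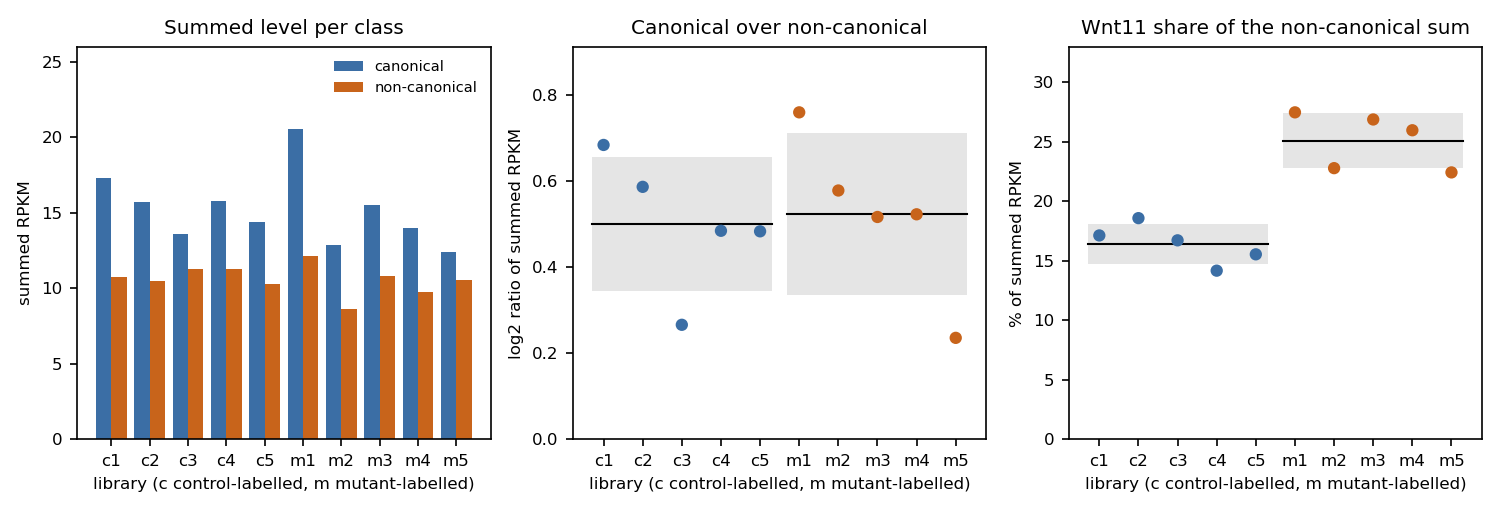
Left, summed RPKM of the canonical (blue) and non-canonical (orange) ligands in each library; middle, log2 ratio of the sums; right, the share of the non-canonical sum contributed by *Wnt11* in percent; in the middle and right panels points are libraries (c1 to c5 control-labelled, m1 to m5 mutant-labelled), lines are group means and grey bands are 1 SD to either side. The ratios overlap (0.27 to 0.68 against 0.24 to 0.76), and the *Wnt11* shares do not (14.2% to 18.6% against 22.4% to 27.5%).

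*Wnt2* and *Wnt2b* were highest in libraries that were also rich in markers of tissues bordering the AF, although the excision left out skin and brain. The summed level of 3 hypodermis markers (*Clec3b*, *Dpt* and *Pi16*), which mark fibroblasts of the deep skin layer, was 14.6 to 43.0 CPM in control-labelled libraries. It was 158 CPM in mutant-labelled replicate 1 and 6.16 to 16.7 CPM in the other mutant-labelled libraries, and none of the 3 markers was at 0 in any library. *Wnt2* followed this sum over the 10 libraries (log2 scale, Pearson's r = 0.95, permutation p = 3.0e-05, adjusted p = 0.0036; Spearman's rho = 0.92, permutation p = 0.00056, adjusted p = 0.0672). Without the 2 libraries farthest from the median of the marker sum, mutant-labelled replicates 1 and 3, r was 0.90. Within the groups r was 0.90 with the control label and 0.98 with the mutant label, over 5 libraries each, and was not tested. This was the one Pearson correlation to pass an adjusted p of 0.05 among 120 relations between the 10 members and 12 marker lists, and no Spearman correlation did. By Pearson's r *Wnt2b* was related most closely to 5 skeletal muscle genes (r = 0.82, permutation p = 0.00383, adjusted p = 0.230; rho = 0.75, permutation p = 0.0166, adjusted p = 0.398), and r was 0.42 without control-labelled replicate 2 and mutant-labelled replicate 1. The muscle sum was 16.4 to 523 CPM with the control label and 14.1 to 473 CPM with the mutant label, highest in those same libraries, with no gene of the list at 0. With the hypodermis list *Wnt2b* gave r = 0.78 (permutation p = 0.00699, adjusted p = 0.280) and rho = 0.76 (permutation p = 0.0152, adjusted p = 0.398). Without mutant-labelled replicates 1 and 3, this r was 0.51. Within the groups it was 0.22 (control label) and 0.88 (mutant label), against 0.84 and 0.89 for muscle. Epidermis markers were low throughout, with the 10 genes summing to 13.4 to 22.4 CPM. The part of these tissues in the *Wnt2* and *Wnt2b* values was not tested.

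The level of *Wnt11* was set beside the markers of the AF itself. The fontanelle connective tissue list summed to 376 to 457 CPM with the control label and 460 to 634 CPM with the mutant label, with no gene of the list at 0, so both it and *Wnt11* stood apart between the groups. Over the 10 libraries *Wnt11* gave r = 0.61 with this list (permutation p = 0.0585, adjusted p = 0.638; rho = 0.71, permutation p = 0.0269, adjusted p = 0.404), and r was 0.40 without mutant-labelled replicates 3 and 4. Within the groups r was −0.51 with the control label and 0.26 with the mutant label, over 5 libraries each, and was not tested. Across mutant-labelled replicates 1 to 5, *Wnt11* was at 13.8, 8.14, 12.1, 10.5 and 9.79 CPM. The connective tissue sums of these libraries were 462, 464, 634, 592 and 460 CPM. The chondrocyte list (*Col2a1*, *Acan*, *Col9a1* and *Matn1*) also did not overlap, at 247 to 323 CPM with the control label and 333 to 377 CPM with the mutant label. Of the 12 lists it was the one related most closely to *Wnt11* (r = 0.69, permutation p = 0.0290, adjusted p = 0.494; rho = 0.76, permutation p = 0.0149, adjusted p = 0.398), and r was 0.65 without control-labelled replicates 3 and 5. Within the groups r was 0.50 with the control label and −0.25 with the mutant label. The ectocranial mesenchyme list gave r = 0.63 (permutation p = 0.0545, adjusted p = 0.638; rho = 0.55, permutation p = 0.105, adjusted p = 0.596), with −0.16 and 0.77 within the groups. The sum of this list was 326 to 451 CPM with the control label and 354 to 530 CPM with the mutant label. It was highest in mutant-labelled replicate 1, as was *Wnt11*. The part of tissue composition in the *Wnt11* difference was not tested.

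**Figure D4:**
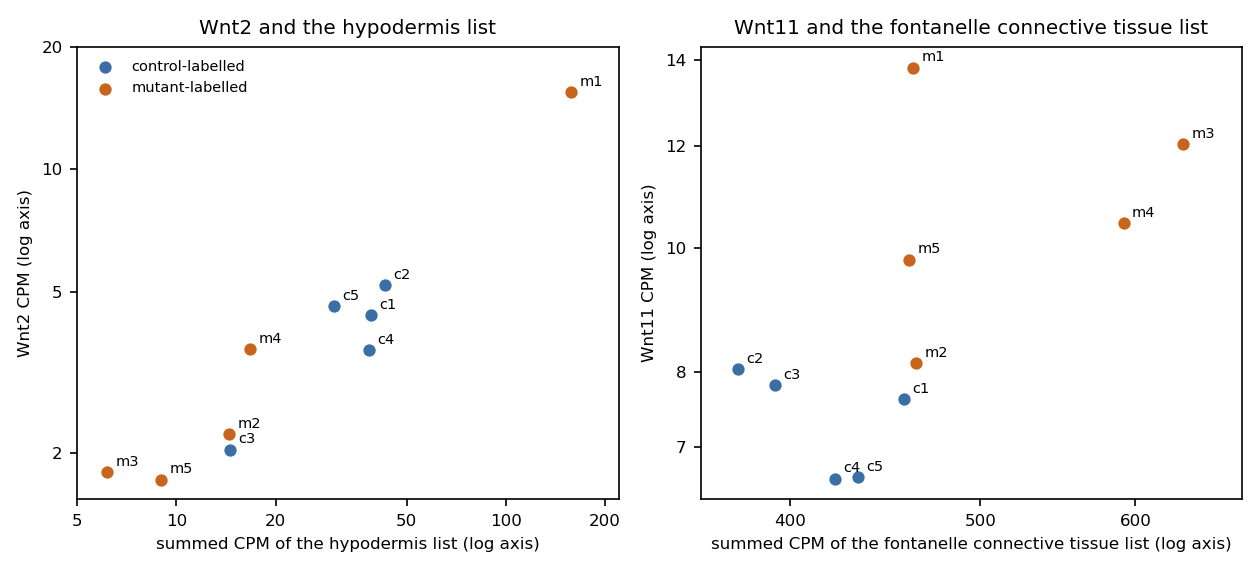
Left, *Wnt2* CPM against the summed CPM of the hypodermis list; right, *Wnt11* CPM against the summed CPM of the fontanelle connective tissue list; both axes are logarithmic, and points are libraries (c1 to c5 control-labelled in blue, m1 to m5 mutant-labelled in orange). *Wnt2* is higher where the hypodermis list is higher, with mutant-labelled replicate 1 at the top (15.5 CPM at 158 CPM of markers), and the mutant-labelled libraries lie above the control-labelled ones in *Wnt11* and, at 460 to 634 CPM against 376 to 457 CPM, to their right.

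Leaving out mutant-labelled replicate 1 changed how many members passed an unadjusted p of 0.05. With 5 control-labelled and 4 mutant-labelled libraries, 6 of 10 members passed in edgeR's quasi-likelihood test, where 7.67% of 16496 genes did (3.55% lower and 4.12% higher). Beside *Wnt10b* (−0.23) and *Wnt5b* (−0.34), the lower estimates were now those of *Wnt2* (−0.75), *Wnt2b* (−0.68) and *Wnt5a* (−0.17), and *Wnt11* remained higher at 0.47. None passed an adjusted p of 0.05, the smallest being 0.511 for *Wnt11* (edgeR, Benjamini-Hochberg). The median over the canonical ligands was then −0.32. This library was singled out after its values were seen. The 4 mutant-labelled libraries left had hypodermis sums of 6.16 to 16.7 CPM, against 14.6 to 43.0 CPM with the control label. The part of this difference in the *Wnt2* and *Wnt2b* estimates was not tested.

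Promoters are shown for *Wnt11* and *Wnt10b*, the pair of members whose groups did not overlap, in opposite directions. Each is the 250 bases before the annotated start, 5′ to 3′ on the strand of the gene (RefSeq, GRCm38.p6), for *Wnt11* at chr7:98834862-98835111 on the forward strand and for *Wnt10b* at chr15:98778151-98778400 on the reverse strand. Capitals mark matches on either strand to CTTTGA (the TCF/LEF motif), TGTGGT (the RUNX motif), TATAAA (the TATA box) or GGGCGG (the Sp1 motif).
Wnt11: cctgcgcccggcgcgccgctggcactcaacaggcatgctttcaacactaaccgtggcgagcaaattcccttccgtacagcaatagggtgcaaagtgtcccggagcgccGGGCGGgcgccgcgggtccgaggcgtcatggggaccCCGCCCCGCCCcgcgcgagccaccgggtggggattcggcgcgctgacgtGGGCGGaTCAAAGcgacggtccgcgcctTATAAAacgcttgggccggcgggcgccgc
Wnt10b: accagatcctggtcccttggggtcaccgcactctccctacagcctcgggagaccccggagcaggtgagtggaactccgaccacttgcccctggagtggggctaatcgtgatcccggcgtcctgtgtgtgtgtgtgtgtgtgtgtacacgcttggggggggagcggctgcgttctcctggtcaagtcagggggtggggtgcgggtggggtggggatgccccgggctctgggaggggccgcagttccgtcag
The *Wnt11* window held 1 match to CTTTGA, on the reverse strand with its first base at −50 from the start, 1 TATAAA at −29 and 4 matches to GGGCGG, of which a pair share bases. The *Wnt10b* window held none of the 4 motifs and 14 CpG dinucleotides, against 37 for *Wnt11* and a median of 6 over all windows. RefSeq gives a second *Wnt11* start, whose window (chr7:98838595-98838844) held none of the 4 motifs and 16 CpG dinucleotides. RefSeq entries were found for 9 of the 10 members (12 windows, none for *Wnt5a*), and 2 of these windows, the *Wnt11* one printed here and one of *Wnt5b*, held CTTTGA. In 32851 windows of the same length, 13.8% held CTTTGA, 14.05% TGTGGT, 12.4% TATAAA and 32.7% GGGCGG. A match in a window is a description of its letters and does not show binding.

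Of 9 further ligand genes, 6 were in the table and 4 (*Wnt1*, *Wnt7a*, *Wnt7b* and *Wnt10a*) passed the expression filter, none at an unadjusted p under 0.05. *Wnt3a*, *Wnt8a* and *Wnt8b* were not analysed here. *Wnt1*, the neighbor of *Wnt10b* and the ligand whose regulatory sequence drives the Cre of this cross, was at 1.48 ± 0.853 CPM with the control label and 0.753 ± 0.333 CPM with the mutant label (log2 fold change −0.97, standard error 0.458, adjusted p = 0.663 from edgeR). *Wnt7b* was at 4.18 ± 1.54 and 5.04 ± 2.55 CPM, and its highest value, 8.93 CPM, was in mutant-labelled replicate 2, in which the 6 neuron markers also had their highest sum (332 CPM, against 39.1 to 139 CPM elsewhere). *Wnt9b* had 9, 5, 7, 7 and 5 counts in control-labelled and 1, 4, 1, 1 and 1 counts in mutant-labelled libraries, which is below the expression filter. These groups did not overlap either, and the exact permutation p of 0.00794, the smallest possible, only restates this. *Wnt9b* was named after these counts were seen, and the share without overlap among genes below the filter was not taken.

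Genes that load, release and inactivate WNT ligands were examined next. All 11 genes listed for acylation and secretion passed the filter, and 1 was higher and 2 lower at an unadjusted p under 0.05 (as were 3.68% and 3.82% of all genes tested), with none past an adjusted p of 0.05 in edgeR's test and a median log2 fold change of −0.05. Values for *Notum*, the secreted enzyme that strips the lipid from the acylated serine and so inactivates the ligand, were 4.64 ± 1.02 CPM with the control label and 2.86 ± 0.279 CPM with the mutant label with no overlap (log2 fold change −0.70, standard error 0.162, adjusted p = 0.307). *Trabd2b*, a membrane protease that cleaves the amino terminus of WNT proteins, was at 36.5 ± 2.03 and 45.4 ± 6.46 CPM (0.32, standard error 0.089, adjusted p = 0.412). *Tmed10*, a cargo receptor of the early secretory pathway, was at 174.5 ± 7.11 and 160 ± 10.1 CPM (−0.13, standard error 0.056, adjusted p = 0.656).

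On the receiving side, 18 of 18 genes listed as non-canonical receptors and planar polarity components were tested, of which 2 were higher and 0 lower at an unadjusted p under 0.05 (against 3.68% and 3.82% over all genes tested) and none passed an adjusted p of 0.05, with a median log2 fold change of 0.06. *Dact1*, which binds Dishevelled, was at 48.4 ± 5.44 CPM with the control label and 58.1 ± 6.30 CPM with the mutant label (0.26, edgeR adjusted p = 0.568). *Daam1*, a formin downstream of Dishevelled, was at 22.6 ± 1.83 and 26.4 ± 4.43 CPM (0.23, adjusted p = 0.659). *Celsr2*, an atypical cadherin of planar polarity that is also strong in neurons, was at 7.31 ± 2.08 and 11.97 ± 7.36 CPM (0.71, adjusted p = 0.662). Of 14 canonical co-receptors and targets 13 were tested, with 2 higher and 0 lower at an unadjusted p under 0.05 (against the same shares over all genes), none past an adjusted p of 0.05 and a median of 0.09. *Lgr5*, a WNT target and R-spondin receptor, was at 6.49 ± 1.95 and 10.2 ± 1.05 CPM (0.65, adjusted p = 0.412). *Nkd1*, a target that restrains Dishevelled, was at 24.5 ± 3.28 and 31.7 ± 4.14 CPM (0.37, adjusted p = 0.445). *Lrp6*, the canonical co-receptor, was at 163 ± 15.1 and 183 ± 23.1 CPM (0.16, adjusted p = 0.716).

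Reads from *Wnt11* and *Wnt5a* could include those of an annotated gene on the opposite strand, as the strand setting of the counting is not given in the sources used here. *Wnt11* shares 364 exon bases with *Gm8398*, which was not analysed here, and *Wnt5a* shares 355 with *Gm2670*, at a mean of 0.0809 CPM with the control label and 0.0253 CPM with the mutant label. The study describes the embryos as 5 pairs of littermates, but neither it nor the labels say which libraries form a pair or how many animals entered each, so no fit had litter as a term and p-values measure the spread between these libraries.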

How the data were processed

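RNA was taken from the AF of 5 control (WT) and 5 mutant (Wnt1-Cre; Fgfr2fl/fl) embryos, and stranded single-end libraries were sequenced. The authors deposited estimated counts per gene and library, not scaled between libraries (66.4% were whole numbers). The submitters' processing notes name Partek and mm10, while the aligner, the counting tool and its strand setting are not given in the sources used here. Positions in the table matched GENCODE M21 (GRCm38) for 22274 of 22533 symbols. All columns belonged to a mapped library.

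Estimated counts were rounded, edgeR's expression filter kept 16267 of 23080 genes, TMM factors were computed, and the groups were compared with the quasi-likelihood test of edgeR 4.0.16 in R 4.3.3, without a covariate. DESeq2 1.42.0 and limma 3.58.1 served for alternatives. Adjustment was by Benjamini-Hochberg across every gene that entered the test, and 0.05 was the threshold. Log2 CPM used a prior count of 0.5, and RPKM used the exon union of each gene. Single genes were also given a two-sided exact permutation test of their mean log2 CPM, which cannot give a p under 0.00794, and correlations a permutation test with 100000 resamples. The fitting scripts were tested on simulated data. Every pair of libraries within a group differed by more than sampling noise.

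Depth was 20774667 to 28515434 estimated counts per library, so that a gene at 1 CPM rests on few counts and counting error adds to its spread. Reported genes were all 10 members, *Fgfr2* and, from each other list, genes past an adjusted p of 0.05 or, with none, the 3 of smallest unadjusted p with a mean of at least 1 CPM. *Wnt9b* and the marker genes were named outside this rule, after their values were seen. The members, ligand classes and lists were chosen with earlier results of these data known.

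The alternatives tried were scaling by library size alone or by DESeq2's size factors, the Wald test of DESeq2, voom with quality weights, tables unfiltered or held to at least 10 counts in every library, a replicate block, removal of ribosomal RNA genes, other ways of forming the class ratio, and leaving out each library. Counting members without overlap after leaving out each library, and measuring the distance of single libraries on the CPM scale, were added after the data were seen.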

Additional observations from a re-analysis of the deposited data

Results flagged for a closer look

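In mutant-labelled libraries *Wnt2b* was at 5.38 CPM in replicate 1, far from the others of its group, of which the nearest was at 2.03 CPM. On the log2 CPM scale the gap came to 0.72 of the group's whole range, where the critical value for 5 libraries is 0.71. Chance passes this value in about 1 of 20 groups, and 24 sets of 5 libraries were examined, of which this was the 1 to pass on that scale. On the CPM scale, tried after the data were seen, the gap of the same library passed for *Wnt2b* (0.84 of the range) and for *Wnt2* (0.86, at 15.5 CPM), and for no other member in either group. The same library held the highest *Wnt2*, *Wnt11* and *Wnt16* levels and the highest hypodermis sum, and their part in the *Wnt2b* value was not tested.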

How the results depend on the processing

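Members past an adjusted p of 0.05 numbered 0 in every edgeR and limma analysis and 1 (*Wnt11*, log2 fold change 0.57) with DESeq2's Wald test. That test called 95 of the 17658 genes to which it gave an adjusted p, where the main fit called 3 of 16267. It gave no p for *Wnt2*. With library size alone, 1 gene passed over all genes, *Fgfr2* was at 0.63 (adjusted p = 0.152), *Wnt9a* at −0.00075 and the median of all genes at −0.04. Without a filter *Fgfr2* was at 0.67 (adjusted p = 0.0557). With limma voom and quality weights *Wnt2* was at −0.29 and *Wnt4* at −0.24. With the replicate number as a block, 1 gene passed, *Fgfr2* was at 0.68 (adjusted p = 0.427) and *Wnt2* at −0.18. Correlations of same-numbered libraries ran from −0.21 to 0.14, so the numbers were not taken as a pairing. With the mean of log2 RPKM, the class ratio differed by −0.22. The cause of these shifts was not tested.

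Leaving out each library in turn gave 1 to 6 genes past an adjusted p of 0.05, with 6 without mutant-labelled replicate 2, and *Fgfr2* between 0.63 and 0.75, with the call lost in 8 of these fits. Members at an unadjusted p under 0.05 numbered 2 to 6. There were 6 without mutant-labelled replicate 1, where 7.67% of all genes tested passed. Members without overlap numbered 2 to 3, a count that cannot fall when a library is removed. With all libraries these counts were 3 and 2, where 7.49% and 1.49% of all genes tested passed or did not overlap. Other shares over all genes were not taken. Ranges were −0.75 to 0.54 for *Wnt2*, −0.68 to 0.058 for *Wnt2b* and −0.029 to 0.11 for *Wnt9a*, all spanning 0, while *Wnt11*, *Wnt10b*, *Wnt5b*, *Wnt5a*, *Wnt4*, *Wnt6* and *Wnt16* kept their sign. The signs turned without mutant-labelled replicate 1 for *Wnt2* (−0.75), without control-labelled replicate 2 or mutant-labelled replicate 2 for *Wnt2b* (0.058 and 0.0035) and without mutant-labelled replicate 3 for *Wnt9a* (−0.029). Counting alone gives *Wnt4* a coefficient of variation of 10.6%, against 11.7% observed with the control label and 20.7% with the mutant label. For *Wnt6* and *Wnt16* it gives 15.6%, and for *Wnt2b* 12.8%, against 24.8% to 71.6% observed.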
